A study of Arabis alpina with 2 samples.

Results

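The markers of chromosome 5 are single-base changes that were listed in a pool of mutant plants and not in the line from which the mutant was made. The plants were Arabis alpina, a perennial relative of Arabidopsis, of the Pajares accession, grown in long days, and genomic DNA of flower buds was sequenced. The mutant library came from eop055 BC1F2 plants. The eop055 line had been selfed, backcrossed to its non-mutagenised progenitor pep1-1, selfed again and sampled by its phenotype, so both libraries carry the pep1-1 allele, a lesion in the PEP1 floral repressor. The other library came from pep1-1 itself. Each group had 1 library, so no test between groups was possible, and the size of the pool was not among the labels.

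A marker was a G-to-A or C-to-T change in the pool list with a Phred-scaled variant quality of at least 25, a coverage of at least 10 reads and a position that the progenitor list did not hold. Of 1390 such markers in the pool, 226 lay on chromosome 5 (16.3%). The pool list held 14923 sites in all, of which 1129 were on chromosome 5, and 392 of those were G-to-A or C-to-T. Of the 392, 141 were at a position listed in the progenitor and 251 were not. Of the 251, 25 were below the quality minimum and 0 of the rest below the coverage minimum, which left the 226 markers. The members were chosen by substitution type, quality, coverage and absence from the progenitor list, so their number is a description. The rule for members did not use the order of the types, and it used the allele frequencies only to derive the coverage. Order and allele frequencies were both known when chromosome 5 was picked as a chromosome of mixed types. Contrasts in mixture with the other chromosomes are therefore descriptions too.

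Alkylating mutagens such as ethyl methanesulfonate add an alkyl group to guanine, which then pairs with thymine, and replication turns the G:C pair into A:T. The change is read as G-to-A when the altered guanine lay on the strand that the assembly shows, and as C-to-T when it lay on the complementary strand. For an induced change the type thus tells which strand was altered. Whether each marker was induced was not tested. In a backcross pool the induced changes segregate, and an allele free of selection is expected near a frequency of 0.5. Coordinates follow the authors' chromosome 5, numbered from 1. The sheet names carry the label V3_6, which may or may not name the assembly, and no other source used here names a build. Genes and flanking bases at these positions were not analysed here. Sites are written as the reference base, the position and the base in the pool.

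Both types were common on chromosome 5 and lay among each other. It held 135 C-to-T markers and 91 G-to-A markers, a C-to-T share of 59.7% (95% Wilson interval 53.2 to 65.9%). Walking along the chromosome, the type changed 82 times, which divided the 226 markers into 83 runs of a single type. Of all pairs of neighbouring markers, 36.4% were of different type. On the other 7 chromosomes this share ran from 11.3% to 27.8%, with 17 to 33 runs each. Both figures depend on how even the types are, and runs also on the number of markers. The lesser type made up 40.3% of markers on chromosome 5 and 6.25% to 49.6% on the others. At the ends of that range, chromosomes 3 and 6 had 11.3% and 12.5% of neighbours of different type. What a random order would give was not computed. All intervals here cover counting error only, and the comparison of chromosomes is within 1 library and was not tested.

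**Figure D1:**
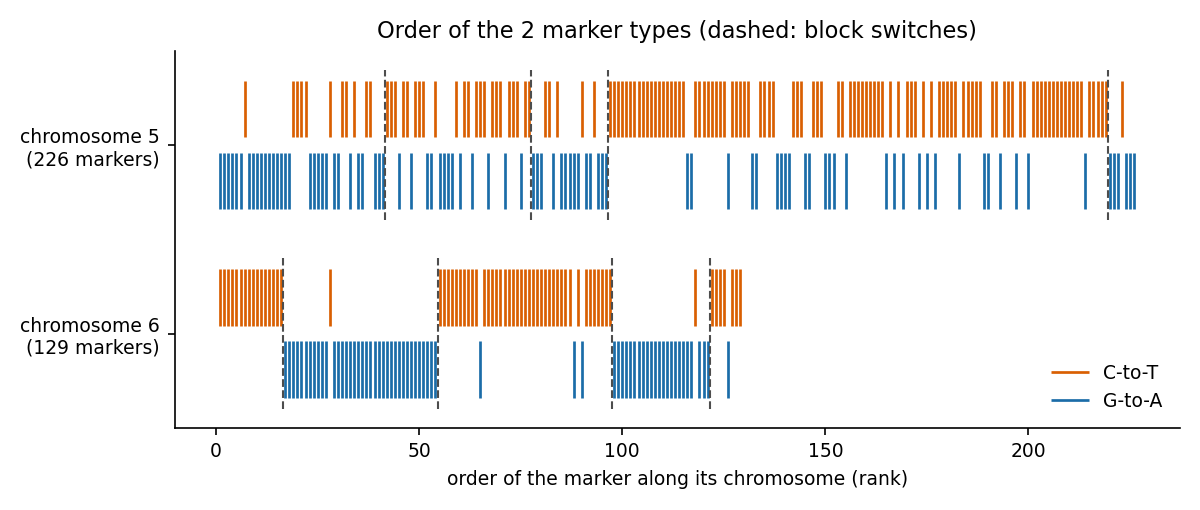
Each stroke is a marker, placed by its order along the chromosome (x axis, rank) and drawn in the upper row for C-to-T and the lower row for G-to-A, for chromosome 5 (226 markers) and chromosome 6 (129 markers). Dashed lines mark the block switches. Chromosome 5 shows both rows filled along most of its length, with 83 runs, and chromosome 6 shows 17 runs.

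Most runs were short. The 41 C-to-T runs had a median of 2 markers, 13 of them were a single marker and 8 had 5 or more. The 42 G-to-A runs had a median of 1 marker, 22 were a single marker and 4 had 5 or more. Runs of 5 or more held 69 of the C-to-T and 27 of the G-to-A markers. The longest on chromosome 5 was 19 C-to-T markers over 2.73 Mb, from C10631164T to C13364274T, with allele frequencies of 0.206 to 0.564 and a median of 0.466. The next was 13 C-to-T markers over 1.27 Mb, from C25116780T to C26384920T, with a median of 0.492. The longest G-to-A run held 11 markers over 1.69 Mb, from G2334810A to G4022041A, with a median of 0.410. The longest runs on the other chromosomes had 19 to 47 markers.

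The first 18 markers were almost of 1 type. Up to 4.02 Mb there were 17 G-to-A markers and 1 C-to-T marker, C2325409T. That marker had 64 of 128 reads, an allele frequency of 0.5, and a quality of 25.5, the lowest of all members together with C17055771T. From C4179214T on, both types occurred, in single markers and in runs.

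Larger blocks of a leading type were traced by dividing the ordered markers so that the number of markers of the other type plus 3 per switch was smallest. Chromosome 5 fell into 5 blocks, 3 led by G-to-A and 2 by C-to-T. The first block ran from G223280A to G6113216A, 5.89 Mb with 30 G-to-A and 11 C-to-T markers. The second ran from C6145380T to C9174731T, 3.03 Mb with 23 C-to-T and 13 G-to-A markers. The third, from G9220265A to G10558461A, spanned 1.34 Mb and held 14 G-to-A and 5 C-to-T markers. The longest block, the fourth, ran from C10631164T to C26879004T, over 16.2 Mb, with 95 C-to-T and 28 G-to-A markers. The fifth, from G27023958A to G28287093A, covered 1.26 Mb with 6 G-to-A markers and 1 C-to-T marker. The number of blocks rests on the cost per switch: there were 13 at a cost of 1 and 2 at a cost of 5.

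At none of the 4 switches did the intervals of the markers on either side separate the types. At the first switch G5816565A stood at 0.491 and G6113216A at 0.5, and after a gap of 32.2 kb C6145380T stood at 0.493 and C6261818T at 0.520. At the second, C8863508T stood at 0.565 and C9174731T at 0.247, and 45.5 kb on G9220265A stood at 0.347 and G9390432A at 0.390. C9174731T was the deepest marker of the chromosome, with 46 of 186 reads (interval 0.191 to 0.314) and a quality of 56.5. Its interval did not overlap that of C8863508T (0.441 to 0.681), a neighbour of the same type, but it overlapped those of G9220265A (0.248 to 0.462) and G9390432A (0.276 to 0.517) beyond the switch. At the third switch G10552476A stood at 0.544 and G10558461A at 0.483, and 72.7 kb on C10631164T stood at 0.532 and C11075812T at 0.417. At the fourth, C26833924T stood at 0.418 and C26879004T at 0.506, and 145 kb on G27023958A stood at 0.484 and G27234863A at 0.471. Except at the second switch, the intervals of all 4 flanking markers overlapped.

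Inside the blocks, 58 of the 226 markers had the other type, 25.7% (20.4 to 31.7%). Over the 8 chromosomes 13.5% of markers did so. The share was 26.8% in the first block, 36.1% in the second, 26.3% in the third, 22.8% in the fourth and 14.3% in the fifth, and the intervals of all 5 overlapped (the fifth, with 7 markers, spans 2.57 to 51.3%). On the other chromosomes it ran from 4.65% on chromosome 6 to 22.4% on chromosome 2, and the interval of chromosome 5 overlapped those of chromosomes 1 (20.1%) and 2. Chromosomes 1, 3 and 8 were 1 block each, so their share was that of their lesser type.

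Quality set the markers of the other type on chromosome 5 apart from those elsewhere. Their median quality was 217, the same as that of the markers that matched their block and the highest value any chromosome 5 marker reached. On the other 7 chromosomes the median quality of such markers lay between 36.5 and 93.5, while that of matching markers lay between 213 and 217. Of the 58 on chromosome 5, 41 had a quality of 200 or more (70.7%), against 16 of 123 on the other 7 chromosomes. Their depth was ordinary, with a median coverage of 65 reads, equal to that of the matching markers.

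Markers of quality 200 or more with up to 100 reads were counted on their own, a choice made after seeing these qualities. Blocks were traced anew on these markers, which gave 3 on chromosome 5 instead of 5. A marker that matched its first block could thus differ from its new one. The counts below are therefore not parts of those above. Matching markers passed that quality minimum at similar rates (66.1% on chromosome 5, 51.7% to 65.3% elsewhere). The counts thus rest on the same difference in quality and on the new blocks, and are not separate support for it. Of 152 chromosome 5 markers, 46 had the other type than their new block, 30.3% (23.5 to 38.0%), where 8.33% did so over the 8 chromosomes. On the other 7 chromosomes 15 of 580 did so (2.59%), at most 5.97% on any one of them (chromosome 1, 2.35 to 14.4%). The share cannot exceed that of the lesser type, and chromosomes 1, 3, 4 and 8 stood at this ceiling. Each formed 1 block, with 4, 0, 4 and 2 markers of the lesser type, so a low share was fixed there by composition. The 152 markers, 85 C-to-T and 67 G-to-A, made 59 runs. Chromosome 6 is the most like chromosome 5 in composition, with 39 C-to-T and 32 G-to-A markers of this kind, and its 71 markers made only 5 runs, each a block of its own. Its count of 0 markers of the other type allows a share of up to 4.23% (3 counts of 71), or up to 5.13% by the Wilson interval. Whether this difference would recur in a second pool could not be tested with 1 library.

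**Figure D2:**
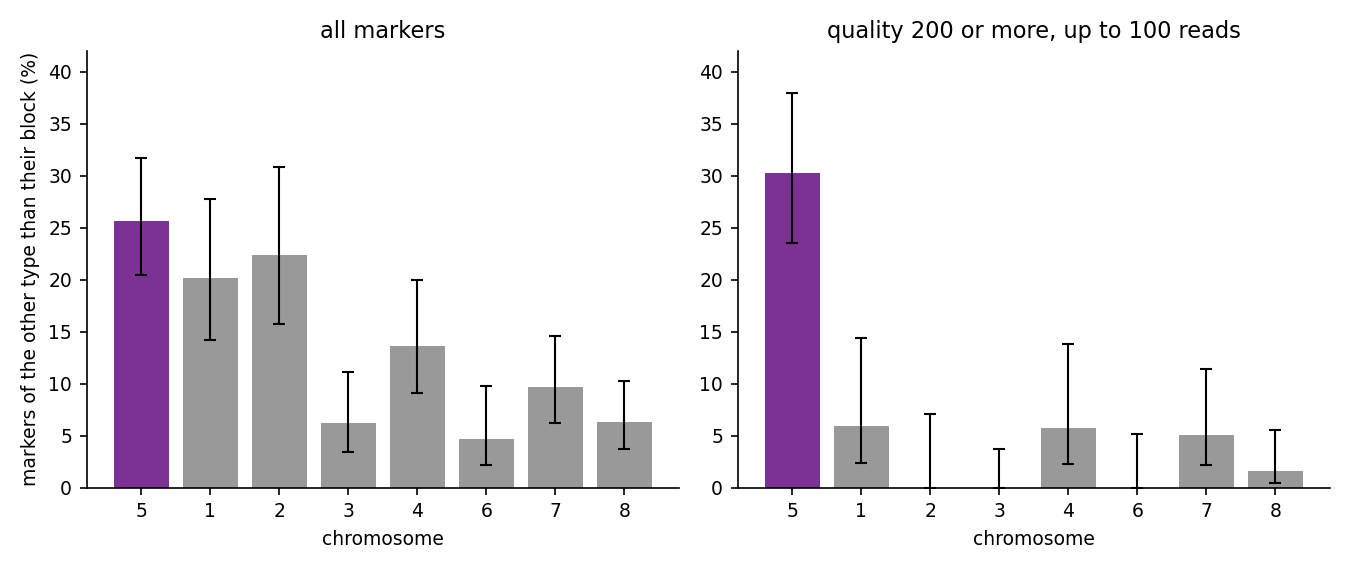
Bars give the percentage of markers whose type differs from that of their block, by chromosome (x axis), for all markers (left) and for markers of quality 200 or more with up to 100 reads (right), with 95% Wilson intervals. Chromosome 5 stands at 25.7% on the left and 30.3% on the right, and the others at 22.4% or less on the left and 5.97% or less on the right. Blocks were traced anew for the right panel. A chromosome of a single block stands at the share of its lesser type.

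Markers of the other type had 42 to 160 reads, and the 10 deepest with up to 100 reads are given here. Of those in the longest block, G26446673A had 45 of 94 reads (0.479), and G16492871A, G16937765A and G24345325A had 37, 41 and 31 of 92 reads (0.402, 0.446 and 0.337). G16728713A had 52 and G18733509A 37 of 90 reads (0.578 and 0.411), G18264141A had 43 of 89 (0.483) and G15902964A had 45 of 88 (0.511). In the first block, C4320901T had 43 of 87 reads (0.494) and C5186461T had 44 of 85 (0.518). All but G24345325A (0.249 to 0.438) had an interval that held 0.5. Quality was 217 for 6 of them and lowest for G15902964A, at 57.5.

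Chromosome 5 carried more markers per length than any other chromosome. Its 226 markers over 28.4 Mb came to 7.97 per Mb (exact Poisson interval 6.96 to 9.08), against 2.92 to 5.26 per Mb on the other chromosomes and 3.93 per Mb over those 7 together. Length here is the highest position listed in either library. Chromosome 5 made up 9.11% of the summed length of the 8 chromosomes and held 16.9% of the 1339 markers on them. The interval did not overlap that of the next, chromosome 3 (5.26 per Mb, 4.48 to 6.14). Taken alone, its C-to-T markers had a density of 4.76 per Mb (3.99 to 5.63) and its G-to-A markers 3.21 per Mb (2.58 to 3.94). The leading type of each other chromosome had 1.95 to 4.93 per Mb and the lesser type 0.281 to 1.92 per Mb. The lesser type of chromosome 5 was thus denser than the leading type on 4 of the other 7, and its leading type lay within their range. Of those 4, the intervals of chromosomes 2, 4 and 7 overlapped that of the lesser type of chromosome 5. The closest was chromosome 7 (3.03 per Mb, 2.57 to 3.55). On chromosome 6, without overlap, the types were nearly even, at 1.95 and 1.92 per Mb.

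**Figure D3:**
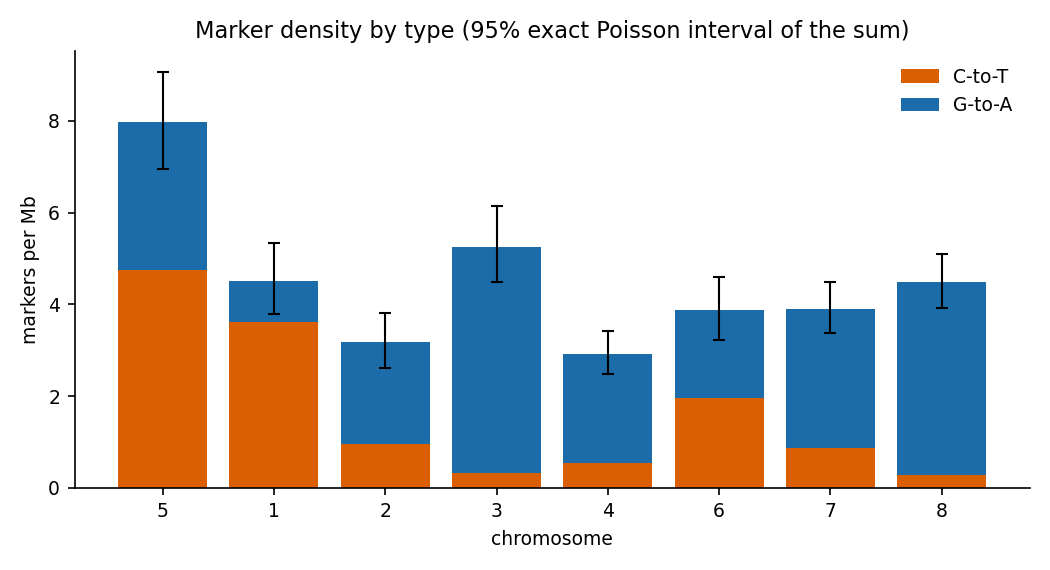
Stacked bars give C-to-T (lower part) and G-to-A (upper part) markers per Mb (y axis) for each chromosome (x axis), with the 95% exact Poisson interval of the sum. Chromosome 5 stands highest, at 7.97 per Mb, made of 4.76 C-to-T and 3.21 G-to-A markers per Mb.

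Other kinds of sites were not denser on chromosome 5. Pool-only sites of all other substitution types came to 3.14 per Mb there, against 3.0 to 4.75 per Mb elsewhere. Sites that the progenitor list also held came to 20.2 per Mb, against 11.6 to 44.5 per Mb. The markers were 71.7% of the pool-only sites of chromosome 5, and 43.0% to 60.6% on the other chromosomes. With markers of quality 200 or more and up to 100 reads, the density was 5.36 per Mb on chromosome 5 (4.54 to 6.28) and 1.33 to 3.22 per Mb on the others.

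Along the chromosome, density peaked between 5 and 10 Mb. That bin held 58 markers, 11.6 per Mb (8.81 to 15), as 31 C-to-T and 27 G-to-A. The bins from 0 to 5 Mb and from 10 to 15 Mb held 29 and 34 markers, or 5.8 and 6.8 per Mb. Those from 15 to 20 Mb and from 20 to 25 Mb held 43 and 36 markers, or 8.6 and 7.2 per Mb, and the 26 beyond 25 Mb came to 7.72 per Mb. The intervals of neighbouring bins overlapped, except that the peak bin lay above the 3.88 to 8.33 per Mb of the first. Of 53 full bins on the other chromosomes the densest had 7 per Mb, on chromosome 1 from 20 to 25 Mb, and 6 reached the 5.8 per Mb of the sparsest chromosome 5 bin.

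The mixture changed along the chromosome as well. C-to-T made up 20.7% of markers from 0 to 5 Mb (9.85 to 38.4%), 53.4% from 5 to 10 Mb (40.8 to 65.7%) and 66.7% to 73.5% in the 4 later bins. All 6 bins held at least 5 markers of each type, against 8 of 53 full bins elsewhere. Neighbours differed in type most often from 5 to 10 Mb, at 52.6% of pairs, and from 20 to 25 Mb, at 57.1%. In the other bins the share was 20% to 28.6%.

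Markers were spread without tight clusters. The median distance between neighbours was 84.5 kb (quartiles 33.8 and 151 kb), and it was 84.7 kb for neighbours of different type and 84.5 kb for those of the same type. Only 2 pairs lay within 1 kb. These were C8850051T and G8850655A, 604 bases apart at 0.421 and 0.453, and C12206472T and C12206857T, 385 bases apart at 0.44 and 0.509. The longest gap was 1212 kb, between G947834A and G2159810A, in which the pool list still held 16 sites and the progenitor list 28. The next were 736 kb, between G13425837A and G14161931A, and 605 kb, between C11540640T and C12145557T.

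The allele frequencies of the chromosome 5 markers formed a single band around a median below 0.5. The lowest was 0.206, the median 0.459 (quartiles 0.403 and 0.508) and the highest 0.659, and 169 of 226 lay between 0.4 and 0.6 (74.8%). The median coverage was 65 reads (59 to 73), which gives a median half-width of 0.117 for the interval of a single marker. That interval held 0.5 for 189 markers. It lay below 0.5 for 34 (15.04%, against 19.1% of all markers of the series) and above it for 3 (1.33%, against 20.1%). No marker reached 0.9. Counting alone, with linked markers taken as independent, 0 of 226 allows a share of up to 1.33%, where 4.17% of all markers reached 0.9. Both series shares rest largely on chromosome 8, with 176 of 280 intervals above 0.5 and 40 of 58 markers at 0.9 or more. Chromosomes 1, 3 and 6 also had 0 markers at 0.9 or more, chromosomes 4 and 7 had 1 each, and chromosome 6 had 1 interval above 0.5 among 129 markers. The standard deviation was 0.0769, 1.25 times the 0.0616 that read counting alone gives, and this ratio was 1.36 on chromosome 6 and 4.02 on chromosome 8.

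**Figure D4:**
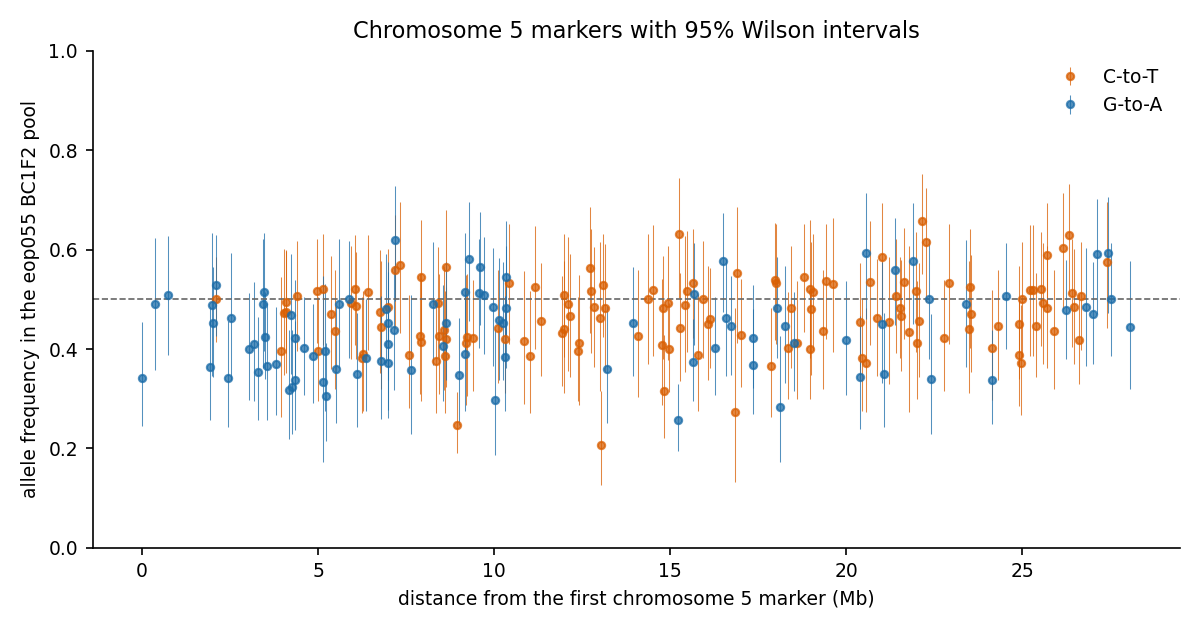
Each point is a chromosome 5 marker, with its allele frequency in the pool (y axis) against its distance from the first marker in Mb (x axis), coloured by type, and bars are 95% Wilson intervals. Points of both types share a band from 0.206 to 0.659 around a median of 0.459, with no rise towards 1.

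C-to-T markers stood slightly above G-to-A markers. The C-to-T median was 0.475 (quartiles 0.423 and 0.518) and the G-to-A median 0.446 (0.369 and 0.491), at median coverages of 66 and 65 reads. The interval lay below 0.5 for 9 of 135 C-to-T markers and 25 of 91 G-to-A markers, and above it for 3 C-to-T and 0 G-to-A markers. The ranges overlapped almost wholly, from 0.206 to 0.659 for C-to-T and from 0.256 to 0.619 for G-to-A. The 95% order-statistic interval of the median was 0.455 to 0.489 for C-to-T and 0.406 to 0.463 for G-to-A, and these overlapped. Such intervals take markers as independent, while markers of 1 pool are linked, so the difference was not tested.

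Compared within the same 5 Mb, the C-to-T median was higher in 5 of 6 bins, with a median difference of 0.0226. From 0 to 5 Mb it was 0.484 for 6 C-to-T and 0.410 for 23 G-to-A markers, and from 5 to 10 Mb it was 0.439 for 31 and 0.409 for 27. From 10 to 15 Mb the medians were 0.462 (25 C-to-T) and 0.453 (9 G-to-A), and from 15 to 20 Mb they were 0.483 (30) and 0.422 (13). From 20 to 25 Mb the order turned, with 0.464 for 24 C-to-T and 0.470 for 12 G-to-A markers. Beyond 25 Mb the medians were 0.5 for 19 C-to-T and 0.484 for 7 G-to-A markers. The quartile ranges of both types overlapped in each bin.

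**Figure D5:**
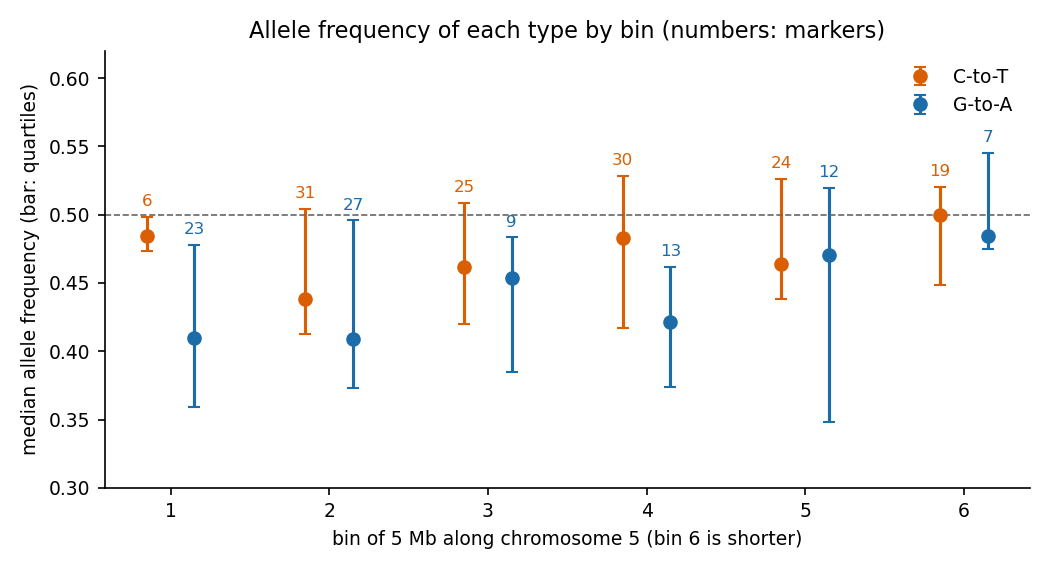
Points are the median allele frequency (y axis) of C-to-T (left of each pair) and G-to-A markers in bins of 5 Mb along chromosome 5 (x axis), bars are quartiles and numbers count the markers. The C-to-T point is the higher in 5 of 6 bins, with differences from -0.0068 to 0.0747.

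Bin medians were higher towards the end of the chromosome. The median of all markers was 0.425 from 0 to 5 Mb, 0.437 from 5 to 10 Mb, 0.457 from 10 to 15 Mb, 0.461 from 15 to 20 Mb, 0.464 from 20 to 25 Mb and 0.496 beyond 25 Mb. Across the 226 markers, which share 1 library and are linked, the Spearman correlation of allele frequency with position was 0.251, and it stayed between 0.179 and 0.284 when any 1 bin was left out. It was 0.170 for C-to-T (0.102 to 0.188 with 1 bin left out) and 0.223 for G-to-A (0.131 to 0.276). Coverage had a correlation of 0.0557 with position and -0.0659 with allele frequency.

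Neighbours differed in allele frequency by about the same amount whether or not they shared a type. The median absolute difference was 0.0708 for the 82 pairs of different type and 0.0684 for the 143 pairs of the same type. Chromosome 2 was alike in this, with 0.0629 for pairs of different type against 0.059 for the same type. The values were 0.0977 against 0.0853 on chromosome 7, 0.102 against 0.0774 on chromosome 4 and 0.101 against 0.0744 on chromosome 6. They were furthest apart on chromosome 8, at 0.330 against 0.0524, chromosome 1, at 0.302 against 0.0612, and chromosome 3, at 0.149 against 0.0785. Markers of the other type on chromosome 5 had a median of 0.444, and matching markers 0.467, a difference of -0.02. On the other chromosomes this difference ran from -0.42 on chromosome 8 to -0.04 on chromosome 2.

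The C-to-T median was the higher in 4 of the 5 blocks, in the fifth on a single C-to-T marker. In the first block, led by G-to-A, the 11 C-to-T markers had a median of 0.475 and the 30 G-to-A markers 0.401. In the blocks led by C-to-T, the C-to-T medians were 0.444 and 0.483, and the G-to-A medians 0.409 and 0.446. The third block went the other way, with 0.423 for 5 C-to-T and 0.484 for 14 G-to-A markers. In the fifth, the single C-to-T marker stood at 0.574 and the 6 G-to-A markers at a median of 0.492.

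The lowest members mostly had low quality or high depth, and the highest did not. The highest were C22383673T with 54 of 82 reads (0.659, interval 0.551 to 0.752), C15466916T with 36 of 57 (0.632, 0.502 to 0.745) and C26541991T with 44 of 70 (0.629, 0.511 to 0.732). G7407383A at 0.619 and C22488593T at 0.615 followed, with intervals that held 0.5. The first 3 were the only members with an interval above 0.5. The lowest was C13267785T with 14 of 68 reads (0.206, 0.127 to 0.316) and a quality of 36.5. C9174731T followed at 0.247, then G15436503A with 41 of 160 reads (0.256, 0.195 to 0.329). C17055771T had 6 of 22 reads (0.273, 0.132 to 0.482) and G18332681A 13 of 46 (0.283, 0.173 to 0.425). The qualities of these last 3 were 27.5, 25.5 and 35.5, near the minimum. Above 100 reads there were 7 markers, 4 C-to-T and 3 G-to-A, with a median of 0.4, and none of them exceeded 0.5.

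Few members lay near the thresholds. Just inside the quality minimum were C2325409T and C17055771T at 25.5 and C11540640T at 26.5, with allele frequencies of 0.5, 0.273 and 0.457. Just outside were C25694189T at 24.5, C8045181T at 20.5 and C14094458T at 20.5, with allele frequencies of 0.436, 0.513 and 0.476. The thinnest members had 21 reads (G5367512A, 0.333), 22 reads (C17055771T) and 30 reads (C21998923T, 0.433), and no site past the quality minimum had fewer than 10.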

How the data were processed

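The lists of single-base variants of 1 eop055 BC1F2 pool and of pep1-1 were matched to their library by the genotype in the sheet name. Both sheet names end in V3_6 and that of pep1-1 also carries V2. What these labels mean is not stated, so the lists may have been processed differently, which would affect which sites count as pool-only. Bowtie2, SAMtools and DESeq are named in the submitters' processing notes, with no version or role, and neither build nor filters are spelled out beyond these labels. The deposited allele frequency is a fraction of reads. Whole numbers in the deposited column headed quality were read as the count of alternative reads, and the deposited column headed reads as a Phred-scaled score of variant quality. In both lists the count over a whole coverage gave the listed frequency at every site (14923 and 14029) within 5.1e-05, and that number was taken as the coverage (medians 106 and 100 reads). The progenitor's depth at unlisted positions is unknown.

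Blocks minimise markers of the other type plus 3 per switch, so an inner block needs a net 7 markers. This step was run on simulated orders. Recovery of the switches was required only where markers of the other type were far fewer than on chromosome 5. Orders with a share close to that of chromosome 5 were also simulated, but their recovery is not reported here. The required check thus does not show how well the chromosome 5 blocks were placed. Named sites follow a rule: block ends, switches, the deepest markers of the other type, extremes, thresholds, longest gaps. Long runs, close pairs and chromosomes named singly were picked after seeing values. Members and rules were chosen with earlier results of these data known. Alternatives changed the quality, coverage and frequency minimums, the subtraction, the switch cost and the bins. Intervals (95%) cover counting error only. Python 3.11.15, numpy 2.4.6, pandas 2.3.3, scipy 1.17.1 and matplotlib 3.10.9 were used.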

Additional observations from a re-analysis of the deposited data

How the results depend on the processing

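Of 141 values under alternatives, 136 stayed within 1.5 times of the main count or within the 95% interval (for the difference between types, the range over bins) of the main value, and 5 moved. The 136 include values that could not move. Dropping the coverage minimum or raising it to 20 kept the same 226 markers, and a near-fixed limit of 0.95 lay above every marker. The number of blocks was 13 at a cost of 1 per switch, 2 at a cost of 5 and 3 with markers of quality 200 or more and up to 100 reads, where density was 5.36 per Mb. That last alternative, added after seeing the data, leaves fewer markers. Without a quality minimum 1 marker reached 0.9, C25626021T, with 20 of 20 reads and a quality of 4.41. Over all alternatives the C-to-T share ran from 55.9% to 60.5%, runs from 59 to 98, the G-to-A median from 0.439 to 0.452 and the C-to-T median from 0.471 to 0.483. No paired analysis was possible because there was 1 library per group, and no replicate could be left out. The depth of 65 reads limits single markers to about 0.117 on each side.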

Other observations

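The other substitution pairs of chromosome 5 differed from the markers in level. The 26 C-to-A and 25 G-to-T pool-only sites had a median allele frequency of 0.28, a median coverage of 38 reads, and 22 runs, with 42% of neighbours of different type. The 9 T-to-C and 2 A-to-G sites had a median of 0.423 and a median coverage of 137 reads. Of the 89 pool-only sites of other types, the highest were A16954107T with 15 of 15 reads, T8471620C with 15 of 18 (0.833) and G4282563C with 8 of 11 (0.727), named after their values were seen.

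Changes of the 2 marker types that the pool and the progenitor shared were nearly even on chromosome 5, with 61 C-to-T and 65 G-to-A among 126 past the minimums in both lists. They made 66 runs, with 52% of neighbours of different type. Their median allele frequency was 0.478 in the pool and 0.496 in the progenitor, at median coverages of 126 and 143 reads, where the markers had 65 in the pool. The 19 progenitor-only changes of the same kinds, 8 C-to-T and 11 G-to-A, had a median of 0.333 and made 12 runs.

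Chromosome 5 held no G-to-A or C-to-T change that was near-fixed (0.9 or more) in both libraries with up to 100 reads in each: 0 of 7 such sites. Chromosome 8 had 310 of 331, chromosome 2 had 215 of 232, and the other 5 chromosomes had 2 to 31. Of the 61 chromosome 5 sites near-fixed in both libraries at any depth, 52 had more than 1000 pool reads. They lay between positions 2424111 and 2431753, with 1756 to 5632 reads each in the pool.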
